A study of Homo sapiens with 12 samples.

Results

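Gene deserts held 4320 of the 38598 H3K27ac regions found in HCT116 cells, or 11.2%. A region is a run of DNA covered by the 20000 highest-scoring peaks of at least 1 library, with peaks closer than 100 bp merged. It was placed in a desert when its midpoint lay outside every protein-coding gene body and over 1 kb from the start of any long noncoding RNA (lncRNA), and when its nearest edge lay more than 100 kb from the nearest start of a protein-coding transcript. Of the other regions, 11219 were at promoters, 14590 inside genes, 1323 at lncRNA starts and 7146 in intergenic DNA within 100 kb of a protein-coding start. Positions are hg38 with GENCODE v44 annotation.

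HCT116 is an established line of colorectal cancer cells in which MAPK signaling is active. It was profiled by CUT&RUN, in which an antibody tethers a nuclease that releases the marked chromatin for sequencing. The 3 conditions had 2 replicate libraries each: untreated cells, cells given 1 μM cobimetinib for 24 hours and cells given TNFα at 100 ng/ml for 24 hours. Cobimetinib blocks MEK1, the kinase above ERK. TNFα, an inflammatory cytokine, signals to NF-κB and to AP1. By the study's methods the libraries came from replicate treatments, but neither these methods nor the labels say whether these were separate cultures, so p-values measure only the spread between these libraries. The 6 IgG libraries are not analysed here, and no background signal was subtracted. Among 7 epithelial markers, promoter peaks at KRT8 and CLDN4 were held by all 6 libraries and none at CDH1. Of 9 markers of other cell types 7 had no promoter peak in any library, while COL1A1 had one in 6.

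Acetylation of histone H3 at lysine 27 marks active promoters and enhancers. Enhancers can act over long distances by looping, so a gene desert can hold the control elements of a gene at its edge, as is known for MYC and SOX9. The transcription factor AP1, a dimer of JUN and FOS proteins, lies downstream of MAPK signaling and binds the word TGAGTCA. A nearest gene is given below to place a region, and nothing here shows that the region controls it.

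The sequences that follow show the kinds of DNA the results turn on. All are 300 bp windows of the plus strand of hg38 within or across a desert region. Capitals mark AP1 words (TGAGTCA or its reverse complement TGACTCA), except in the last window, where they mark GGAAT or its reverse complement ATTCC. The first pair are windows with AP1 words from regions that ranked higher under TNFα than under cobimetinib, near HMGA2 (chr12:65656915-65657214) and TRIML1 (chr4:188941768-188942067).
HMGA2: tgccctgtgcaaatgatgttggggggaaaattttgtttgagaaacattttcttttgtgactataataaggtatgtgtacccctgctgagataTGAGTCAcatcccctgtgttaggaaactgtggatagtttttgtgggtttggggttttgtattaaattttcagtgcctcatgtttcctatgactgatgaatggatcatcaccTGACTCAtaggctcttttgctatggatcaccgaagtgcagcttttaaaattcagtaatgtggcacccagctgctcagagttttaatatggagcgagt
TRIML1: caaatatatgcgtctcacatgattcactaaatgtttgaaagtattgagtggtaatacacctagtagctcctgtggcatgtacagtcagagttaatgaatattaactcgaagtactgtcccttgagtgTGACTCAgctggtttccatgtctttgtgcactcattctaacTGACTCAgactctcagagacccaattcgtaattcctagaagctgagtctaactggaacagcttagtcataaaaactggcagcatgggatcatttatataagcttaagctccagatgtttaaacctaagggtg
The next windows hold AP1 words repeated at a regular step, near BRD1 (chr22:49386810-49387109) and near TRIML1 in another region (chr4:188447963-188448262).
BRD1: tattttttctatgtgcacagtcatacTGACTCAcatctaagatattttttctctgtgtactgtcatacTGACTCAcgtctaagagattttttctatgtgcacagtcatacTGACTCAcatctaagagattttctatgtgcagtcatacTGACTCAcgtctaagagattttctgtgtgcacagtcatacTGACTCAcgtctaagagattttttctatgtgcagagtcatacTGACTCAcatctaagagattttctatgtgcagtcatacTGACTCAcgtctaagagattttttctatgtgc
TRIML1 repeat: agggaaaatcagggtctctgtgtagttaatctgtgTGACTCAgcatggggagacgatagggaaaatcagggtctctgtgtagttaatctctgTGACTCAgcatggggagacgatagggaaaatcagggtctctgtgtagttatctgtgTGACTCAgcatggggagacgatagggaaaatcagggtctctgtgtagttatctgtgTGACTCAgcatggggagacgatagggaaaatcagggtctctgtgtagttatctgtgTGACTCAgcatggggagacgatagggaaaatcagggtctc
The region near CREB1 (chr2:207394778-207395077) showed the largest rank difference between treatments and holds no AP1 word. The window near CWH43 (chr4:49149380-49149679) shows the short-step repeats that carried some of the highest-ranked desert peaks.
CREB1: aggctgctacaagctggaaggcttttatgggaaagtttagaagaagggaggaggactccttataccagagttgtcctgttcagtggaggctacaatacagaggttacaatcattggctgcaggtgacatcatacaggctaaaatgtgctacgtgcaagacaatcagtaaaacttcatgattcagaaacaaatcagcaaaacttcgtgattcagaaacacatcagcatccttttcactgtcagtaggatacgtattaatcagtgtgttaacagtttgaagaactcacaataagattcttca
CWH43: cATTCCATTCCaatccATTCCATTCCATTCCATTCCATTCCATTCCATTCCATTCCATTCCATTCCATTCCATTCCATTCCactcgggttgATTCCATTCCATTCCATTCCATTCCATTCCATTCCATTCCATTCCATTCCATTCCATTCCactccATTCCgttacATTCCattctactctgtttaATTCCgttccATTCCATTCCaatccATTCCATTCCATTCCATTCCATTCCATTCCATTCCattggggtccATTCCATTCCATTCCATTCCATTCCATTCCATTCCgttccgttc

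Most desert regions were held by few libraries. A library held a region when one of its 20000 highest peaks overlapped it by at least 1 bp. Of the 4320 desert regions, 2584 (59.8%) were held by 1 library, 427 by 2, 319 by 3, 239 by 4, 243 by 5 and 508 (11.8%) by all 6. Among all 38598 regions the shares were 40.6% for 1 library and 20.5% for all 6. Regions held by 2 or more libraries numbered 1736.

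Untreated replicate 2 stood apart. It held 2532 desert regions, against 1298 in untreated replicate 1, 1230 and 1352 in cobimetinib replicates 1 and 2, and 1545 and 1657 in TNFα replicates 1 and 2. Of its desert regions 1662 (65.6%) were held by no other library, against 8.01% to 17.5% in the other 5. The number held alone was 104 in untreated replicate 1, 147 and 201 with cobimetinib, and 180 and 290 with TNFα. In untreated replicate 2, 7102 peaks shared the last score taken and 2177 of them were taken in file order. Of its 1662 regions, 505 (30.4%) rested on a peak at that score. These 1662 regions cannot enter most of the sets compared below, so several shares are also given over regions held by both libraries of a condition or by 2 or more libraries.

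**Figure D1:**
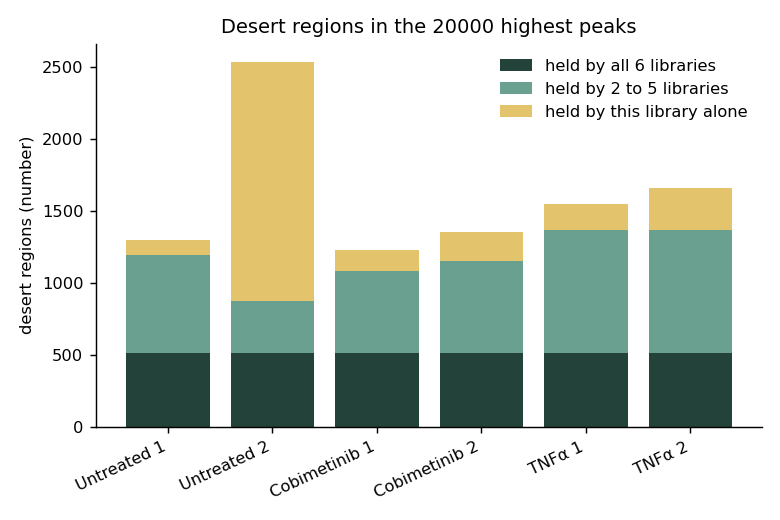
Number of desert regions (vertical axis) held by each of the 6 libraries (horizontal axis), divided into regions held by all 6 libraries, by 2 to 5 and by that library alone. The 508 regions held by all 6 are the same in each bar, and 1662 of the 2532 in untreated replicate 2 were held by it alone.

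Regions held by untreated replicate 2 alone differed in form from the rest. Their median width was 238 bp, against 450.5 bp for the 922 regions held by 1 other library, 1070.5 bp for regions held by 2 to 5 libraries and 1723.5 bp for those held by 6. Median GC content of the 300 bp midpoint window was 37.0%, 40.7%, 42.0% and 42.0% in that order. A region joins the peaks of all libraries that hold it, so its width can rise with their number. Untreated replicate 2 also had narrow peaks outside deserts. Their median width in intergenic DNA within 100 kb of a start was 323 bp, against 864 to 1083.5 bp in the other libraries. When the whole deposited list of each library was searched for a peak of any score, 1461 (87.9%) of the 1662 had none in any other library. Of the 922, only 224 (24.3%) had none elsewhere. The AP1 word lay in 6.26% of windows of the 1662 (95% Wilson interval 5.19 to 7.53%) and in 24.0% of the 922 (21.3 to 26.8%). It lay in 31.0% of windows held by 2 to 5 libraries (28.5 to 33.7%) and in 26.2% of those held by all 6 (22.5 to 30.2%). The control word ACTGAGT, with the same base composition, lay in 5.23% of all 4320 desert windows, and the AP1 word in 19.4%, a share lowered by the 1662. Over the 1736 regions of 2 or more libraries these shares were 5.93% and 29.6%. In intergenic regions within 100 kb of a start the AP1 share was 22.3%, and over all regions 16.0%. These intervals cover counting error only, and regions of 1 library are not independent samples.

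Other words were rarer in desert windows. The words for TCF factors of the WNT pathway (CTTTGAT or CTTTGAA, either strand) lay in 13.4% and the TEAD word ACATTCC in 7.87%. The shares over all regions were 9.44% and 5.46%, and in intergenic windows within 100 kb of a start 11.3% and 6.69%. The TEAD word ends in ATTCC, the unit repeated in the CWH43 window above. It lay in 69 of 354 windows (19.5%) of the tandem repeat regions described below, and the TCF words in 10.2% of them. The FOX word TGTTTAC lay in 4.86%, the GATA word AGATAAG in 4.70% and the NF-κB consensus in 2.82%. The ETS word CCGGAAG lay in 0.972% of desert windows against 4.49% of all windows, and the CREB word TGACGTC in 0.671% against 1.55%. Promoters had the highest shares, 11.2% for ETS and 3.08% for CREB. In intragenic windows these shares were 1.31% and 0.747%, and in intergenic windows within 100 kb of a start 2.21% and 1.15%. The low desert shares were thus nearest to those of intragenic windows and lower than those of the nearer intergenic windows. GC content differed in the same direction, with a median of 40.0% in desert windows and 48.0% over all regions, and its part in these shares was not tested.

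The share held by several libraries was highest nearest to genes. Between 100 and 200 kb from a start lay 1632 desert regions, of which 44.2% were held by 2 or more libraries. The share was 38.4% of 1444 regions at 200 to 500 kb, 36.3% of 755 at 500 to 1000 kb and 38.0% of 489 farther out. LncRNA bodies contained the midpoint of 1425 desert regions (33.0%, 31.6 to 34.4%), against 21.8% of the nearer intergenic regions (20.8 to 22.7%). The desert share was similar in the 1662 regions of untreated replicate 2 alone (31.9%) and in those of 2 or more libraries (33.1%). How much of all desert DNA lies in lncRNA bodies was not measured.

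Desert peaks were also compared with other distal peaks inside each library, so that the library was the unit. The median width of desert peaks was 1113.5, 266, 846, 797, 866 and 767 bp in untreated 1 and 2, cobimetinib 1 and 2 and TNFα 1 and 2. In the same order, intragenic peaks away from starts had medians of 1124, 326, 928, 895.5, 997 and 866 bp. Desert peaks were narrower in 6 of 6 libraries, with a mean difference of -80.2 bp ± 41.3 (SD, n = 6; exact sign-flip permutation p = 0.0313, two-sided, adjusted over 4 values p = 0.125). Against the nearer intergenic peaks they were narrower in 5 of 6 libraries, with a mean difference of -59.8 bp ± 48.7 (exact permutation p = 0.0625, adjusted p = 0.125). Neither passed after adjustment, and the smallest p that 6 libraries allow is 0.0313. Without the tandem repeat regions described next, the mean differences were -11.3 bp (p = 0.406, exact permutation) and 6.67 bp (p = 0.719, exact permutation).

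Tandem repeats were more frequent in deserts than in other distal regions. A region was counted as a tandem repeat when the 1000 bp around its midpoint matched itself at 50% or more of bases after a shift of 2 to 400 bp. This held for 354 desert regions (8.19%, 7.41 to 9.05%), against 1.11% of the nearer intergenic and 0.836% of the intragenic regions. Their median distance from a start was 763.1 kb and their median width 329.5 bp. The AP1 word lay in 2.26% of their windows. Genes next to centromeres and other repeat-rich stretches led the list of nearest genes: TPTE had 51 desert regions (20 of them tandem repeats), ZNF33B 47 (41), CWH43 37 (26), USP9Y 33 (21), WSB1 27 (21) and DEFB115 25 (13). The authors kept only uniquely mapping reads. Copies of a repeat that are nearly identical to one another keep few such reads, and the signal of these regions is uncertain.

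The highest peaks of every library included these repeats. The CWH43 region at chr4:49149158-49149901, 162.5 kb from the start, matched itself at 79.2% of bases after a 5 bp shift. It ranked 12 and 18 in the untreated, 7 and 3 in the cobimetinib and 4 and 4 in the TNFα libraries, where rank 1 is the highest score of a library. A second CWH43 region (chr4:49709234-49710178) ranked between 2 and 13. The PROS1 region (chr3:93470301-93470857), with 42.2% self-identity and so below the limit, ranked 1 in 5 libraries and 5 in untreated replicate 2. Among the top 1000 peaks, desert regions took 6.80% and 18.7% without treatment, 8.20% and 9.30% with cobimetinib and 11.8% and 14.5% with TNFα. Tandem repeats made up 17.6% to 48.4% of these desert peaks.

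**Figure D2:**
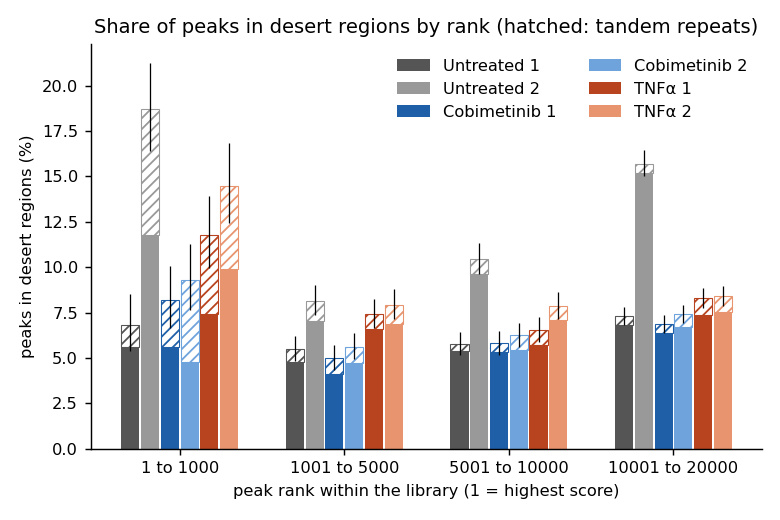
Percent of peaks in desert regions (vertical axis) by rank within the library (horizontal axis, 4 bins) for the 6 libraries, with 95% Wilson intervals for counting error; hatching marks the part in tandem repeats. In the top 1000 the share ran from 6.80% to 18.7%, and untreated replicate 2 was highest in every bin.

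The median rank of desert peaks did not separate them from other distal peaks. It was 11361 and 13708 in the untreated, 10932 and 10925 in the cobimetinib and 10702 and 9872.5 in the TNFα libraries. Desert peaks ranked better than nearer intergenic peaks in 5 of 6 libraries and worse in untreated replicate 2, for a mean difference of 244.0 ± 1120 (SD, n = 6; exact permutation p = 1.0, two-sided). Against intragenic peaks the mean difference was 62.5 ± 1078 (exact permutation p = 1.0). Without untreated replicate 2 these means were -205.9 and -365.3 (exact permutation p = 0.0625 for both, the smallest 5 libraries allow).

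Desert regions lay in 2546 clusters when gaps of up to 50 kb were joined, 1747 of them with 1 region and 363 with 3 or more. The largest held 27 regions over 299.4 kb (chr12:75623222-75922666) between KRR1, a ribosome assembly factor, and PHLDA1, a gene induced by MAPK signaling. Of the 27, 24 were held by 2 or more libraries and 9 by all 6, 15 contained an AP1 word, and none was a tandem repeat. Such a word was contained in 983 (56.6%) of the 1736 desert regions of 2 or more libraries and in 31.9% of all desert regions. The 6 libraries held between 17 and 20 of them. The region with the best mean rank there (chr12:75639502-75642588) ranked 689.5 and 1251 in untreated, 797 and 628.5 in cobimetinib and 415 and 651.5 in TNFα libraries, and held no AP1 word. The next (chr12:75656694-75661150), with 4 AP1 words, ranked 6780, 1821, 12310, 4228, 759 and 662.5 in the same order. No region of the cluster was called by rank between TNFα and cobimetinib. The next clusters in size had 18 regions each: one near H3-7 on chromosome 1 (chr1:143184620-143264884), with 16 tandem repeats, one near TPTE on chromosome 21 (chr21:8400324-8467023), with 5, and one near CWH43 on chromosome 4, with 17.

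**Figure D3:**
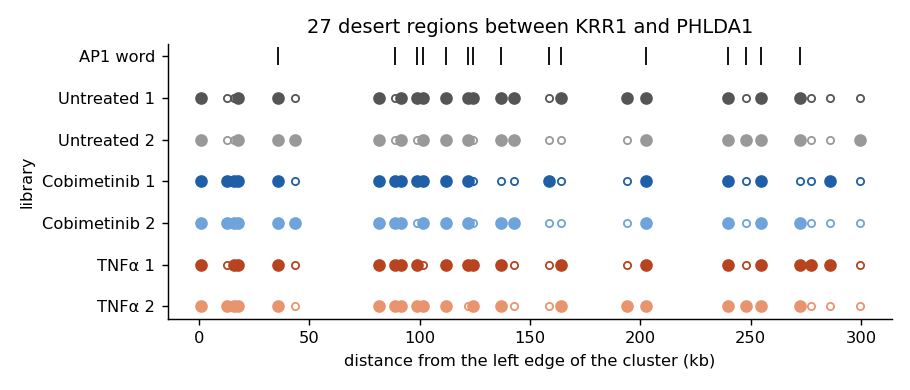
The 27 desert regions of the largest cluster, by distance from the left edge of the cluster in kb (horizontal axis) and library (vertical axis); filled points are regions held by the library, open points regions not held, and ticks in the top line mark the 15 regions with an AP1 word. Each library held 17 to 20 of the 27.

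Gene lists differed in how many members were the nearest gene of a desert region. Of 28 genes listed because they are known to border deserts, 21 (75%) were nearest to at least 1 desert region, and 16 to one held by 2 or more libraries. Of 12 genes induced by MAPK signaling, 7 (58.3%) were, and 6 (50%) for regions of 2 or more libraries. PHLDA1 had 11 regions (8 held by 2 or more libraries), DUSP4 10 (8), DUSP6 4 (2), SPRY4 3 (2) and CCND1 1 (1). SPRY2 had 11, of which 8 were held by untreated replicate 2 alone and 1 by 2 or more libraries. EPHA4 had 3, of which 2 were from that library alone and 0 were held by several. Over all 19676 protein-coding genes the share was 7.01%, and 3.75% for regions of 2 or more libraries. Only 1 of 12 genes induced by TNFα (TNFAIP3), 1 of 9 AP1 genes (JUN, by a region of untreated replicate 2 alone), 3 of 14 WNT genes (MYC, SOX9 and AXIN2), 0 of 7 epithelial markers and 2 of 9 markers of other cells (PTPRC and COL3A1) were. A gene must border a desert to be counted, so these shares also follow how isolated the genes are. The 28 genes were picked for bordering deserts, and all lists were chosen with earlier results of these data known. The shares are therefore a description only.

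Conditions were first compared by presence, with no test, since 2 libraries against 2 cannot give an exact p below 1/3. A desert region was lost under a treatment when both untreated libraries and neither treated library held it, and gained in the converse case. Cobimetinib lost 75 desert regions (1.74% of them, beside 1.60% of all 38598 regions) and gained 132 (3.06% beside 3.92%). TNFα lost 20 (0.463% beside 1.00%) and gained 197 (4.56% beside 3.56%). Of the nearer intergenic regions, cobimetinib lost 1.95% and gained 4.46%, and TNFα lost 1.13% and gained 4.48%, close to the desert share gained. As a share of the regions that both libraries of the holding condition held, cobimetinib lost 10.7% of desert regions beside 6.03% of all, and gained regions made up 14.7% beside 10.0%. For TNFα these shares were 2.84% beside 3.77% and 16.5% beside 8.90%. The order of desert and all regions among those gained under cobimetinib thus turned with the denominator. Of the 197 gained regions 28 were tandem repeats, and 169 remained without them. Both comparisons share the untreated libraries. In the direct comparison, 297 desert regions were held by both TNFα and neither cobimetinib library (6.88% beside 5.41%), and 121 by both cobimetinib and neither TNFα library (2.80% beside 4.39%). Of the regions both TNFα libraries held, the 297 were 24.9%, beside 13.5% of all regions so held. Of those both cobimetinib libraries held, the 121 were 13.5% beside 11.2%, which again turned the order. The nearer intergenic regions gave 6.98% and 5.07%. Without tandem repeats the desert counts were 275 and 118. Of the 297, 51 were held by both untreated libraries, 95 by replicate 1 only, 25 by replicate 2 only and 126 by neither. Of the 121, the counts were 6, 27, 9 and 79.

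The AP1 word was more frequent in the desert regions held under TNFα than in those held under cobimetinib. It lay in 118 of 297 windows (39.7%, 34.3 to 45.4%) of the former and in 30 of 121 (24.8%, 18.0 to 33.2%) of the latter. The control word lay in 7.41% and 6.61%. Without tandem repeats the AP1 shares were 42.9% and 25.4%. With regions built from the 10000 highest peaks per library they were 34.3% and 31.7%, and from the 40000 highest 40.8% and 21.8%. In the nearer intergenic regions the same sets had 39.1% and 18.5%, so the contrast was not particular to deserts. The word lay in 32% of windows of the 75 regions lost under cobimetinib and in 34.0% of the 197 gained under TNFα. In the latter the control word lay in 10.2% (6.67 to 15.2%) and the NF-κB consensus in 7.61% (4.67 to 12.2%). The NF-κB consensus lay in 3.86% of desert windows of 2 or more libraries and in 5.44% of all windows.

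**Figure D4:**
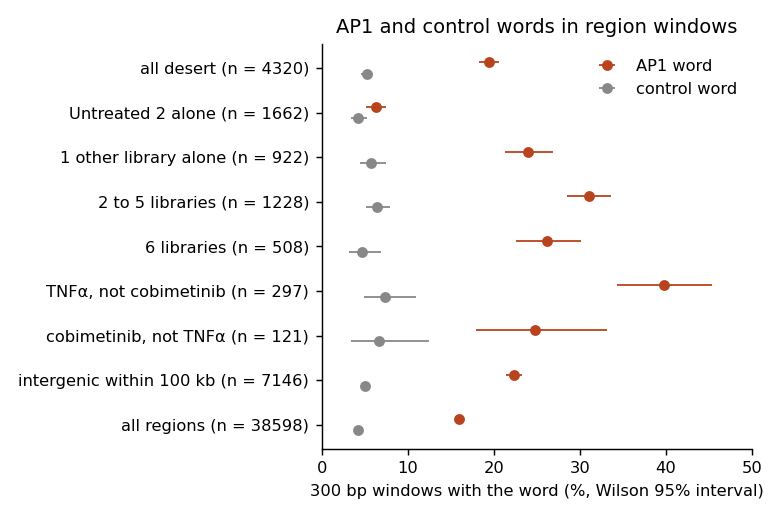
Percent of 300 bp windows (horizontal axis) that hold the AP1 word or the control word of the same base composition, by group of regions (vertical axis), with 95% Wilson intervals for counting error. The AP1 share was 6.26% in regions held by untreated replicate 2 alone and 39.7% in those held by both TNFα and neither cobimetinib library.

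Ranks were then compared. For each region the best peak in the whole deposited list of each library gave a rank, and differences are log2 ratios of ranks, positive where the first condition ranked better. A library with no peak in a region was set to a rank of 69814, and so were worse ranks. The model (limma, with adjusted p-values over all 38598 regions) called no desert region higher under cobimetinib than in untreated cells (0.0181% of all regions were called) and 1 lower (0.00777% of all). Unadjusted, 173 and 218 desert regions had p under 0.05. It called 3 higher under TNFα than in untreated cells (0.0700% of all) and 0 lower (0.00% of all), with 264 and 98 at unadjusted p under 0.05. Between TNFα and cobimetinib it called 39 higher (0.903% of desert regions, beside 0.635% of all) and 4 lower (0.0926% beside 0.176%). Of the 7146 nearer intergenic regions it called 67 higher and 14 lower, so calls of higher rank were not particular to deserts. The median log2 difference between TNFα and cobimetinib was 0.00 over the 4320 desert regions and over all regions, and 40.0% and 39.4% lay above 0. Many regions tied at 0. Of the desert regions 1727 lay above 0 and 1197 below, against 15224 and 17705 of all regions. Over the 1736 desert regions of 2 or more libraries the median was 0.540, with 1116 above 0 and 619 below. This shift was not tested.

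These calls rested on all 6 libraries. All 43 kept their direction when any library was left out, but without untreated replicate 1 only 2 of the 43 were still called, and without any of the other 5 libraries none was. On the quantile-normalized score in place of the rank, none of the 43 was called, with all 43 in the same direction. Of the 39 higher under TNFα, 18 were also in the presence set of 297, 12 were held by all 6 libraries, 1 was a tandem repeat and 32 (82.1%) contained an AP1 word. Of all desert regions 31.9% contained one, of those held by 2 or more libraries 56.6%, and of those held by 6 61.0%. Wider regions have more room for a word, and median widths were 1552 bp for the 39, 1194 bp for 2 or more libraries and 1723.5 bp for 6. The AP1 word lay in the midpoint window of 17 of the 39 (43.6%, 29.3 to 59.0%).

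The region near CREB1, a cAMP-responsive transcription factor, had the largest difference. It lies at chr2:207393813-207396042, in an lncRNA body 133.7 kb from the gene's start. It ranked 3493 and 4321.5 in untreated, 10624.5 and 10170 in cobimetinib and 64 and 74 in TNFα libraries. The ranks of the 3 groups did not overlap, with TNFα best and cobimetinib worst. The log2 difference between TNFα and cobimetinib was 7.24 ± 0.88 (SE, limma adjusted p = 0.000146), and between TNFα and untreated 5.82 ± 0.88 (adjusted p = 0.00504). That between cobimetinib and untreated, -1.42 ± 0.88, did not pass (adjusted p = 0.604). A second region 58.2 kb away, with KLF7 as the nearest gene (chr2:207334226-207335633), ranked 6177.5, 9374, 16988, 20944.5, 1076.5 and 772.5 in the same order of libraries and was also called (4.37 ± 0.82, adjusted p = 0.0111).

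Other regions also ranked best under TNFα. The region near RIPK2, a kinase of innate immune signaling (chr8:89313190-89314623, 443.2 kb), ranked 17588.5 and 50469.5 in untreated, 54201 and 28413 in cobimetinib and 654.5 and 863 in TNFα libraries. Only the TNFα libraries were high, and the difference was called against cobimetinib (5.71 ± 0.85, limma adjusted p = 0.00160) and against untreated cells (5.31 ± 0.85, adjusted p = 0.00930). The TRIML1 region (chr4:188941211-188942796, 801.8 kb) ranked 6556.5, 1704.5, 16704.5, 11131.5, 330 and 142.5, with 5.97 ± 0.91 between the treatments (adjusted p = 0.00192). TRIML1 belongs to the tripartite motif family.

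HMGA2 encodes an architectural chromatin protein. A region 166.3 kb from its start (chr12:65654975-65658112), inside an lncRNA body and with 3 AP1 words, ranked 4195.5 and 2503.5 in untreated, 40980.5 and 29261.5 in cobimetinib and 1398.5 and 406.5 in TNFα libraries. Only the cobimetinib libraries lay outside the top 20000. The log2 difference between TNFα and cobimetinib was 5.52 ± 0.87 (limma adjusted p = 0.00225), and that between cobimetinib and untreated, -3.42 ± 0.87, did not pass (adjusted p = 0.154). The region near KLF14, a zinc finger factor (chr7:130838404-130840196, 2 AP1 words), ranked 3411.5, 6214, 20630.5, 23257, 2242 and 1141, with 3.78 ± 0.83 between the treatments (adjusted p = 0.0285). A region near CNTNAP3 (chr9:39030166-39031357, 2 AP1 words) was the 1 desert region called between cobimetinib and untreated cells. It ranked 148.5 and 887.5 in untreated, 16403 and 22332 in cobimetinib and 829.5 and 670.5 in TNFα libraries, for a difference of -5.72 ± 0.94 (limma adjusted p = 0.0172). CNTNAP3 has near-identical copies on chromosome 9, and with uniquely mapping reads alone its level there is uncertain.

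The region near CNTNAP3C (chr9:63117064-63117436) had peaks in the TNFα libraries alone. It ranked 3549.5 and 1914 under TNFα there, and the other 4 libraries, with no peak of any score, were set to the limit. It was 1 of the 3 regions called against untreated cells, but it entered the regions through the TNFα libraries alone and its other values are the limit, so the call restates that choice. With a limit of 40000 it was not called (limma adjusted p = 0.0560).

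The 4 regions lower under TNFα than under cobimetinib were near TPTE, TRIB1, TBL1XR1 and RHOU. TRIB1 encodes a pseudokinase that binds MEK1. Its region (chr8:125658555-125660114) ranked 15504 and 16075.5 in untreated, 3686.5 and 2366.5 in cobimetinib and 71581.5 and 50791.5 in TNFα libraries, so that untreated cells lay between the treatments (-4.33 ± 0.82, limma adjusted p = 0.0115). The region near TBL1XR1, a corepressor subunit (chr3:176916552-176917352), ranked 3158.5 and 5007 under cobimetinib and 60343.5 and 96281 in untreated cells, with no peak under TNFα, where the limit was used. It was in the regions through the cobimetinib libraries alone, so its call is a description. The RHOU region (chr1:228837611-228839188) ranked 10904, 9374, 2111, 1009.5, 13739 and 22018. The region near TPTE on chromosome 21 (chr21:6368499-6371433) ranked 159, 600.5, 26, 65, 1004.5 and 1730 and was high in every library (-5.00 ± 1.13, adjusted p = 0.0323). It is one of 51 regions near that gene.

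**Figure D5:**
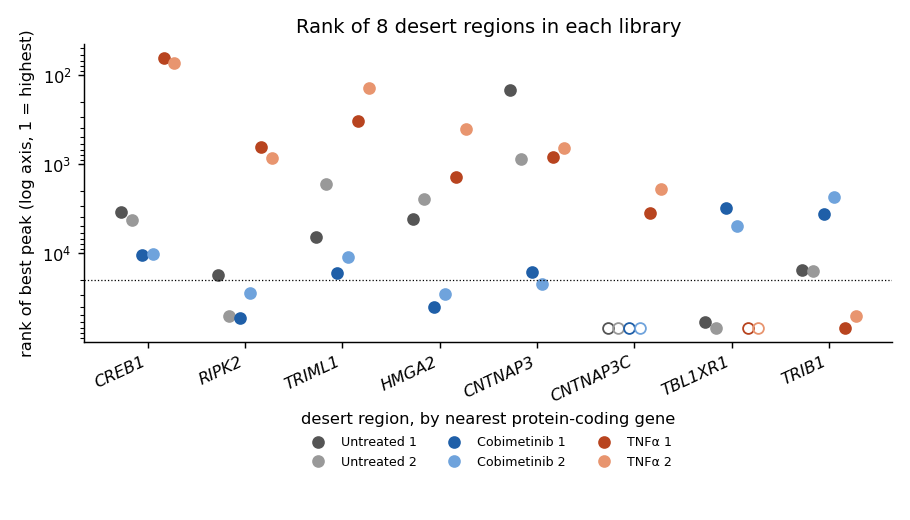
Rank of the best peak (vertical log axis, 1 highest, reversed) of 8 desert regions named by nearest gene (horizontal axis) in the 6 libraries; open points had no peak and, like ranks beyond it, are drawn at the limit of 69814, and the dotted line is rank 20000. Under TNFα the CREB1 region ranked 64 and 74, and the TRIB1 region lay near the limit.

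MYC and SOX9, which flank large deserts and are targets of WNT signaling in the intestine, had 22 and 23 desert regions. The MYC regions lay 100.9 to 927.7 kb from a start, and the 6 libraries held 12 and 10 (untreated), 9 and 7 (cobimetinib) and 18 and 14 (TNFα) of them. Of the 22, 6 were held by both TNFα and neither cobimetinib library and 0 in the converse case, where all desert regions had 6.88% and 2.80%. Only regions of 2 or more libraries can enter these sets. Of the MYC regions 16 were such, against 40.2% of all desert regions, so these shares are not a like baseline. The regions of both genes were singled out after their values were seen, and these counts carry no test. At chr8:128182453-128183731, 444.7 kb from MYC, ranks were 19834 and 31498 in untreated, 26053.5 in cobimetinib replicate 2 and 2262 and 730.5 under TNFα, with no peak in cobimetinib replicate 1, which was set to the limit (5.05 ± 0.87, limma adjusted p = 0.00578). At chr8:128126883-128128843, with 2 AP1 words, ranks were 7729, 2503.5, 30214, 36157, 3774.5 and 2361.5 (3.47 ± 0.85, adjusted p = 0.0500). Not every MYC region followed. The best ranked of them (chr8:128554275-128557220) stood at 225 and 1704.5 without treatment, 85.5 and 288.5 with cobimetinib and 1067 and 2201 with TNFα, a difference of -3.29 ± 1.10 that did not pass (adjusted p = 0.203). The libraries held 12, 10, 7, 6, 11 and 10 of the SOX9 regions in the same order, and 5 were in the TNFα set against 1 in the cobimetinib set. The called one (chr17:71412465-71413932, 707.1 kb) ranked 2958.5 and 4767 without treatment, 23988.5 and 19677.5 with cobimetinib and 1885.5 and 632.5 with TNFα (4.31 ± 0.85, limma adjusted p = 0.0151), and holds no AP1 word.

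AP1 words repeated at a regular step occurred in a few desert regions. At least 1 AP1 word lay in 1380 desert regions, at least 3 in 151 and at least 10 in 4. The region with the most, chosen after its values were seen, holds 65 words in 3108 bp near BRD1 (chr22:49385423-49388530, 436.3 kb), with a commonest step of 40 bp found 33 times. It ranked 4962.5 and 2224 without treatment, 25898 and 17073.5 with cobimetinib and 1076.5 and 2435.5 with TNFα, and was called between the treatments (3.70 ± 0.85, limma adjusted p = 0.0357). The TRIML1 repeat region (chr4:188447806-188448412) holds 11 words with a commonest step of 56 bp and ran the other way. It ranked 1275.5 and 3477.5 under cobimetinib, 20457.5 and 31498 in untreated and 43557 and 6303 under TNFα, and was among the 132 gained under cobimetinib, though its rank difference from untreated cells did not pass (3.59 ± 0.93, adjusted p = 0.174). Both regions are repeats, in which unique reads may be few.

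Some desert regions belonged to a lone library. Cobimetinib replicate 1 had a peak at rank 165.0 near BCOR (chrX:39787510-39788262), where no other library had a peak of any score. The best region held by untreated replicate 1 alone was near LGALSL (rank 8013). For another 3 libraries the best was near UACA (6171, cobimetinib replicate 2), RAPGEF2 (7634.5, TNFα replicate 1) and USP24 (5598, TNFα replicate 2). All 4 had peaks of lower rank in at least 2 other libraries. The regions farthest from a protein-coding start among those of 2 or more libraries lay near TPTE on chromosome 21 (chr21:5128120-5128762, 5392.8 kb) and OR11H1 on chromosome 22 (chr22:11369566-11370023 and chr22:11371034-11371534, 4158.2 and 4156.7 kb). The OR11H1 regions matched themselves at 85.1% and 73.7% of bases after shifts of 342 and 171 bp. They ranked between 1036 and 8096.5 and between 7124.5 and 94408.5 in the 6 libraries.

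The remaining named regions of the presence sets had no rank call against untreated cells. DMRTA1 (chr9:22237709-22239467) and TSEN15 (chr1:184212792-184213899), held under cobimetinib and not TNFα, ranked 7009 and 3926, and 2143 and 9115.5, in the cobimetinib libraries. Under TNFα they ranked 25101.5 and 83913, and 61437.5 and 22608.5. SLC38A2, an amino acid transporter (chr12:46489624-46490989), and BDNF, a neurotrophin (chr11:27881279-27882993), were lost under TNFα. SLC38A2 ranked 10336 and 5822.5 in untreated and 45994 and 39485.5 under TNFα, and BDNF 14921.5 and 7276 against 40616 and 64541. Under cobimetinib SLC38A2 ranked 77561.5 in replicate 1 and had no peak in replicate 2, so its loss was not particular to TNFα. BDNF ranked 5529 and 11303.5 there. MARCKS (chr6:113351761-113353617), lost under cobimetinib, ranked 1158.5 and 2503.5 in untreated and 23988.5 and 20944.5 under cobimetinib. Under TNFα it ranked 1015 and 2151, and it was called between TNFα and cobimetinib (3.92 ± 0.85, limma adjusted p = 0.0257). OTOL1 (chr3:162294949-162296357), gained under TNFα, ranked 3399 and 3201.5 there and 31859.5 in untreated replicate 1, with no peak in replicate 2. Under cobimetinib it ranked 40980.5 and 46531.5, and it was called between TNFα and cobimetinib (3.73 ± 0.84, limma adjusted p = 0.0323). It was in the regions through the TNFα libraries alone, so its call is a description.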

How the data were processed

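Reads of the H3K27ac CUT&RUN libraries were trimmed, aligned to hg38 with BWA (0.7.15), reduced to uniquely mapping reads and turned into peaks with MACS2 (2.1.1) by the authors, per the study's methods and the submitters' processing notes, in each library separately and without an IgG background. The deposited score is the authors' whole-number value of each peak. It rises with depth, which is unknown, so only ranks within a list were compared (tied scores share their average rank). The lists hold 69813 to 124771 peaks. By its peak names, the list of untreated replicate 2 merges resequenced reads.

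Regions were built and classified with Python 3.11.15 (pandas 2.3.3, numpy 2.4.6, pysam 0.24.0) against GENCODE v44. Ranks were fitted with limma 3.58.1 (R 4.3.3, trend on the mean) on all 38598 regions, with Benjamini-Hochberg adjustment and a threshold of 0.05, and tested on simulated data. Sign-flip permutation used scipy 1.17.1. Members and gene lists were chosen with earlier results of these data known. Regions named are the 3 best-ranked regions of each set and of those held by all 6 libraries, the 3 largest changes of each rank call, the 3 farthest from a start, the best of each lone library, the 3 largest clusters and the AP1 arrays. The arrays, and some regions that other parts of the rule name, are not reported here. Genes named are their nearest genes, the 10 genes with the most regions and list members. Regions near BRD1, KLF7, MYC and SOX9, and the best regions within the largest cluster, were added after their values were seen. Alternatives were other peak numbers, cover, merge distances, distance limits, rank models and leaving out libraries.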

Additional observations from a re-analysis of the deposited data

How the results depend on the processing

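Distance from region midpoints, a merge distance of 1000 bp and limma without its trend left every count within 1.5 times, as did leaving out tandem repeats. The rank counts did so too when only regions with a peak in all 6 libraries were fitted. With the 10000 highest peaks there were 1615 desert regions, 700 held by 1 library and 915 by 2 or more. Cobimetinib then gained 60 and TNFα 101, the direct sets held 178 (AP1 word in 34.3%) and 63, and the mean rank differences from nearer intergenic and intragenic peaks turned to -110.9 (exact permutation p = 0.688) and -414.5 (p = 0.0313, exact permutation). With the 40000 highest there were 15296, 12035 and 3261 regions. Cobimetinib then lost 118 and gained 240, TNFα lost 74, and 308 were held under cobimetinib and not TNFα. The mean width difference from nearer intergenic peaks was -107.1 bp, the rank difference from them 2492 (both exact permutation p = 0.0313) and that from intragenic peaks -113.2 (p = 0.625, exact permutation). Beyond 200 kb lay 2688 regions, 1673 of 1 library and 1015 of 2 or more. Cover of 50% left 35 lost under cobimetinib. Counting a region as absent only outside the 40000 highest peaks gave 19 lost and 33 gained under cobimetinib, 5 and 69 under TNFα, and 141 and 51 in the direct sets. Without tandem repeats, a choice made after seeing the data, the width differences were 6.67 bp from nearer intergenic and -11.3 bp from intragenic peaks.

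Leaving out 1 library at a time gave 2658 to 4233 desert regions and 977 to 2612 held by 1 library, both lowest without untreated replicate 2. A set that is left with 1 library on a side is looser by construction: cobimetinib then lost 74 to 1788 and gained 132 to 412, TNFα lost 20 to 1719 and gained 197 to 548, and the direct sets held 297 to 645 (AP1 word in 29.6% to 39.8%) and 121 to 361. The values of 1788 and 1719 came without untreated replicate 1, when untreated replicate 2 alone stood for untreated cells. Rank differences ran from -205.9 to 407.6 and from -365.3 to 232.6, negative only without untreated replicate 2. The width difference from intragenic peaks ran from -92.8 to -68.6 bp, and 5 libraries allow no exact p under 0.0625. Rank calls ran from 0 to 138 higher and 0 to 1687 lower for cobimetinib against untreated, 0 to 218 and 0 to 1631 for TNFα against untreated, and 0 to 28 and 0 to 13 for TNFα against cobimetinib. All counts above 0 came without untreated replicate 1, and the lone library of a condition was assumed to vary like the others. Where the count was 0 in the last contrast, 187 to 574 regions were higher at unadjusted p under 0.05 (limma).

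With the replicate number as a block (replicate block), limma called 15 higher and 72 lower for cobimetinib, 23 and 49 for TNFα against untreated, and 93 and 14 for TNFα against cobimetinib, including all 43 of the model without it. The labels do not say what the numbers share, and deviations of same-numbered libraries correlated by only 0.0254 to 0.0990, so these counts are not read as paired. A rank limit of 40000 called 0 lower for cobimetinib, and 22 higher and 2 lower between the treatments. The quantile-normalized score called 0 in all contrasts, with 372 higher and 130 lower at unadjusted p under 0.05 between the treatments (limma). Reads and depth are not in these lists, so a region without a peak may lie under the detection limit.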
